A study of Homo sapiens with 12 samples.

Results

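The genes described are 6 histone deacetylases, chosen by name: HDAC1, HDAC2 and HDAC3 of class I, HDAC5 and HDAC9 of class IIa, and HDAC11, the single member of class IV. They were read from 14582 named genes on 12 Affymetrix expression arrays of SK-MEL-2, an established human melanoma cell line. Each gene was measured by 1 probe set, and every one of the 6 lay above the dim level, set near the top of the dimmest 25% of genes, on all 12 arrays. The cells were treated for 24 h in 4 groups of 3 arrays. The DTE group received dabrafenib (100 nM), trametinib (10 nM) and entinostat (1 µM) together, the DT group dabrafenib and trametinib at the same doses, the E group entinostat at the same dose, and the DMSO group the vehicle. All groups are this 1 line grown in the same serum-containing medium, so the measurements hold for that line. The labels call the arrays of a group biological replicates and the series design calls them technical, so p-values measure the spread between these arrays, which may be technical.

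Histone deacetylases remove acetyl groups from lysines of histones and other proteins. The class I enzymes are nuclear and act as catalytic subunits of corepressor complexes: HDAC1 and HDAC2 in SIN3, NuRD and CoREST, and HDAC3 with NCOR and SMRT. Class IIa enzymes have little catalytic activity of their own, shuttle between nucleus and cytoplasm under control of kinases, and repress MEF2 transcription factors. HDAC11 removes long-chain fatty acyl groups from lysines. Entinostat is a benzamide inhibitor selective for class I. Dabrafenib inhibits RAF kinases and trametinib inhibits MEK, the kinase below RAF that activates ERK.

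Promoter sequences of 300 bases, 250 before and 50 from the annotated start, came from RefSeq on build GRCh38.p14 and covered HDAC1, HDAC2, HDAC3, HDAC9 and HDAC11. HDAC9 and HDAC11 are shown as the pair of these genes with the most alike levels over the 12 arrays after the quantile normalization described below. On the deposited values HDAC1 and HDAC3 were slightly more alike. Both likenesses include the DT arrays, on which HDAC9 and HDAC11 were known to be high when they were chosen. HDAC2 is shown as a class I gene beside them. HDAC9 lies on chromosome 7 (plus strand, chr7:18086575-18086874, the most upstream of 5 starts), HDAC11 on chromosome 3 (plus strand, chr3:13480056-13480355) and HDAC2 on chromosome 6 (minus strand, chr6:113971099-113971398). Capitals mark GC boxes (GGGCGG on either strand) and, in HDAC9, the single MEF2 motif, which begins 8 bases before the start and overlaps no GC box.
HDAC9: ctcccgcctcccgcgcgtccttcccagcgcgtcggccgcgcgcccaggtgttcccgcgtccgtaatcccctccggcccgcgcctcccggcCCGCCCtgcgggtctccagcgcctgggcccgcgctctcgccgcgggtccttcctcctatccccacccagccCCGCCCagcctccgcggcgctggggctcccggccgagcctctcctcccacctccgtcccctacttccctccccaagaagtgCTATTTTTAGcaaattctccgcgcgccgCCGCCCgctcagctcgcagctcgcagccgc
HDAC11: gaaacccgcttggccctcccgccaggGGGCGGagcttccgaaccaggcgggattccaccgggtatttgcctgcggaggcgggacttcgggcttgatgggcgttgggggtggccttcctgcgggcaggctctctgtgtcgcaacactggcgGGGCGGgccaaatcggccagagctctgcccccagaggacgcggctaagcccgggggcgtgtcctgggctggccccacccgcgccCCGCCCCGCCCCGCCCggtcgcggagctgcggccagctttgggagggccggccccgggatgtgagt
HDAC2: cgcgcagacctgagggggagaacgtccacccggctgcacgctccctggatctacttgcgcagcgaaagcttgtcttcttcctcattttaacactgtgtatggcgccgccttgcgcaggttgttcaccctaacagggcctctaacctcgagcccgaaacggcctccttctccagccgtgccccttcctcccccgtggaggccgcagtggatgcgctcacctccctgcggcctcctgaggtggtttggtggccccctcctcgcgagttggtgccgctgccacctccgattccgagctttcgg

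The HDAC9 window had 75.0% GC, 41 CG dinucleotides and 3 GC boxes, the HDAC11 window 73.7% GC, 30 CG dinucleotides and 5 GC boxes, and the HDAC2 window 64.0% GC, 24 CG dinucleotides and no GC box. The median over 35116 RefSeq promoters was 58.7% GC and 14 CG dinucleotides, and 45.0% of them hold a GC box. HDAC1 had 6 GC boxes and HDAC3 had 3, so the GC box does not separate HDAC9 and HDAC11 from class I. The MEF2 motif, the AT-rich site that MEF2 factors bind, occurred in 2.99% of promoters. It was found in no other window of these genes, which include the 4 downstream HDAC9 starts at 40.0% to 49.3% GC. The other motifs searched on both strands were CCAAT (34.6% of promoters), TATAAA (11.5%), CACGTG (7.3%), TGACG (24.6%), TGANTCA (7.7%), CCGGAA (17.2%) and TTTGGCGC (0.7%). HDAC11, HDAC2, HDAC3 and the upstream HDAC9 window held none of these 7. HDAC1 had 1 CCAAT and 1 CCGGAA, and the downstream HDAC9 windows had CCAAT in 3 and TGANTCA in 2 of 4. The 2 windows with TGANTCA overlap and share that site, and they share their CCAAT sites as well. The motifs were chosen after the expression values were seen, and a match describes letters only. The arrays do not show which HDAC9 start SK-MEL-2 cells use.

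The arrays differed in brightness between treatments, which bears on every value that follows. The median intensity over all named genes was 24.1 ± 1.14 in DTE, 32.8 ± 1.52 in DT, 46.2 ± 6.21 in E and 37.8 ± 4.03 in DMSO (SD, n = 3 each). DTE lay below each other group on every array, with an exact two-sided permutation p of 0.1, the smallest that 3 arrays against 3 can give. Whether this came from RNA content, from the spike-in RNA that the labels say was added to the lysis reagent, or from array scaling was not tested. Each difference is therefore given on the deposited scale, after quantile normalization, which gives all arrays one distribution of values, and where stated after centring each array on its median. The median log2 difference over all genes on the deposited scale was -0.12 in DT and 0.14 in E relative to DMSO, while DTE gave -0.54 relative to DMSO, -0.41 relative to DT and -0.82 relative to E. All 8 measured melanocyte-lineage genes were above the dim level on every array, with summed intensities of 2444 to 2646 in DTE, 4232 to 4765 in DT, 4285 to 6148 in E and 5097 to 5827 in DMSO. Neither of the 2 measured fibroblast genes was above it, while 1 leukocyte gene (CD14), 1 of 3 keratinocyte genes and 1 endothelial gene (VWF) were. Their part in the results was not tested.

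**Figure D1:**
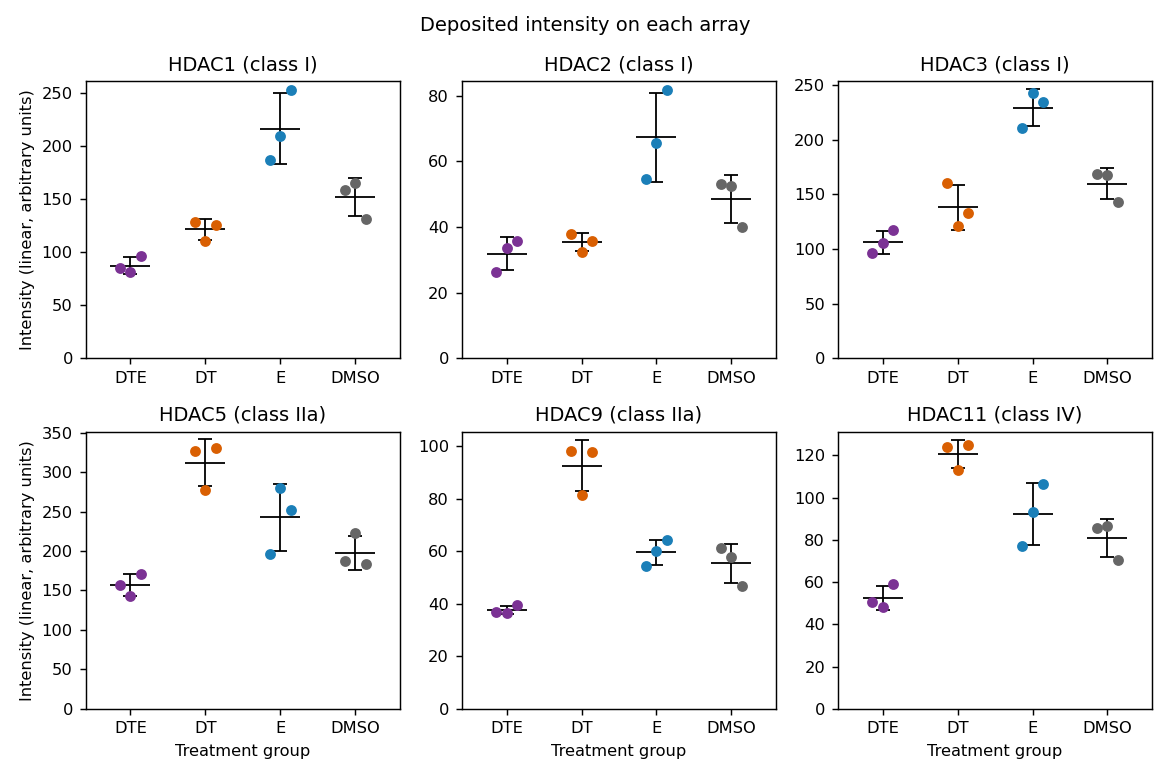
Deposited linear intensity (vertical axis) of the 6 genes on each array by treatment group (horizontal axis); points are arrays, and bars are the mean with SD (n = 3). HDAC5, HDAC9 and HDAC11 are highest in DT, HDAC1, HDAC2 and HDAC3 are highest in E, and DTE lies below every other group for each gene except HDAC2, where DTE and DT arrays overlap.

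Dabrafenib with trametinib divided the 6 genes. HDAC5, HDAC9 and HDAC11 rose in DT cells against DMSO, by 0.66, 0.75 and 0.58 on the deposited log2 scale. None of HDAC1, HDAC2 and HDAC3 rose. Of the 6, 3 were called higher and 1 lower at an adjusted p under 0.05 from limma, against 4.72% of all named genes called higher and 23.1% called lower. After quantile normalization 3 of 6 were called higher and 0 lower, against 15.1% and 14.6% of all genes. After median centring the counts were also 3 and 0, against 15.7% and 17.7%. An earlier account of these data had already named HDAC5, HDAC9 and HDAC11 as higher in DT, so their choice is not independent of this comparison. The same holds for the other results that use the DT arrays. These are DTE against DT, the interaction, the ratios in DT and the correlations over the 12 arrays. The promoter pair HDAC9 and HDAC11 was picked from those correlations.

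HDAC9, a class IIa enzyme known in mouse muscle both to repress MEF2 factors and to be transcribed under their control, had intensities of 98.3, 81.4 and 98.0 in DT and 61.1, 57.9 and 46.9 in DMSO. Every DT array was above every DMSO array. The difference was 0.75 ± 0.14 on the log2 scale (SE, adjusted p = 2.3e-04), with a 95% interval of 0.46 to 1.03. After quantile normalization it was 0.98 ± 0.076 (adjusted p = 7.3e-07), larger than for 98.6% of genes.

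HDAC5, the class IIa enzyme best known for export from the nucleus when phosphorylated, had intensities of 327, 277 and 331 in DT and 187, 223 and 184 in DMSO. These arrays did not overlap either, and the log2 difference was 0.66 ± 0.15 (SE, adjusted p = 0.0016). After quantile normalization it was 1.02 ± 0.11 (adjusted p = 1.3e-05). HDAC11, the class IV enzyme, had 124, 113 and 125 in DT and 85.8, 86.5 and 70.5 in DMSO, again without overlap. Its log2 difference was 0.58 ± 0.15 (SE, adjusted p = 0.0037), and 0.89 ± 0.08 after quantile normalization (adjusted p = 2.6e-06). For these 3 of 6 genes all DT arrays were above all DMSO arrays, as was the case for 8.08% of all named genes. In bulk RNA, fewer cells expressing a gene and less of its RNA per cell cannot be told apart.

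The 3 class I genes described here gave smaller differences, whose direction depended on the scale for HDAC1 and HDAC3. HDAC1, the catalytic subunit shared by SIN3, NuRD and CoREST, had 129, 110.0 and 126 in DT and 159, 165 and 131 in DMSO, a log2 difference of -0.32 ± 0.15 (SE, adjusted p = 0.11). After quantile normalization the difference was 0.042 ± 0.077, with a 95% interval of -0.12 to 0.21. HDAC3, the enzyme of the NCOR and SMRT complexes, had 160.4, 121 and 133 in DT and 168, 168 and 143 in DMSO. Its arrays overlapped, and the difference of -0.22 ± 0.14 (adjusted p = 0.29) became 0.14 ± 0.092 after quantile normalization (adjusted p = 0.31). HDAC2, the close paralogue of HDAC1, had 37.8, 32.5 and 35.8 in DT and 53.1, 52.6 and 40.1 in DMSO. It fell by 0.45 on the deposited log2 scale (SE 0.16, adjusted p = 0.043). That call was lost after quantile normalization (-0.21 ± 0.10, adjusted p = 0.15) and when any 1 of 7 arrays was left out (the first and second DMSO, each DT, the second DTE and the second E array), with an adjusted p of up to 0.16. The lowest HDAC2 intensity was 26.3, in DTE, and the dim level was 10.3 to 15.3 over the 12 arrays of all groups.

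With entinostat alone, the genes called among the 6 were HDAC1, HDAC2 and HDAC3. HDAC8, the other class I gene, was not called on any scale. HDAC1, HDAC2 and HDAC3 rose in E cells against DMSO on the deposited scale, and HDAC5, HDAC9 and HDAC11 were not called in either direction. Of the 6, 3 were called higher and 0 lower, against 20.8% and 4.81% of all named genes. After quantile normalization 2 of 6 were called higher and 0 lower, against 15.1% and 16.3% of all genes. After median centring 0 of 6 were called in either direction by limma, against 11.7% called higher and 26.1% called lower. HDAC1 and HDAC3 then missed the threshold at adjusted p = 0.074 and 0.077, with log2 differences of 0.22 and 0.24.

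HDAC1 had intensities of 187, 209 and 253 in E and 159, 165 and 131 in DMSO, with a log2 difference of 0.51 ± 0.15 (SE, adjusted p = 0.012) and, after quantile normalization, 0.41 ± 0.077 (adjusted p = 0.0011). HDAC3 had 210.3, 243 and 234 in E and 168, 168 and 143 in DMSO, with 0.52 ± 0.14 (SE, adjusted p = 0.0079) and, after quantile normalization, 0.43 ± 0.092 (adjusted p = 0.0028). HDAC2 had 54.7, 65.5 and 81.8 in E and 53.1, 52.6 and 40.1 in DMSO, with 0.46 ± 0.16 (SE, adjusted p = 0.039). For each of these 3 genes the lowest E array was above the highest DMSO array on the deposited scale, as held for 27.0% of all named genes. HDAC2 was not called after quantile normalization (0.20 ± 0.10, adjusted p = 0.17). Without the third E array or the third DMSO array, 1 of the 6 genes was called on the deposited scale in place of 3. HDAC1 then had an adjusted p of 0.075 or 0.064, and HDAC2 of 0.21 or 0.19. HDAC2 also lost its call without the second E array (adjusted p = 0.082).

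HDAC5, HDAC9 and HDAC11 overlapped between E and DMSO on the deposited scale. HDAC5 had 196, 279.7 and 252 in E and 187, 223 and 184 in DMSO (log2 difference 0.28 ± 0.15, adjusted p = 0.18). HDAC9 had 54.4, 60.2 and 64.1 in E and 61.1, 57.9 and 46.9 in DMSO (0.11 ± 0.14, adjusted p = 0.61). HDAC11 had 77.1, 93.3 and 107 in E and 85.8, 86.5 and 70.5 in DMSO (0.18 ± 0.15, adjusted p = 0.39). With 1 array left out, the HDAC5 difference ranged from 0.17 to 0.43, the HDAC9 difference from -0.0019 to 0.19 and the HDAC11 difference from 0.073 to 0.31. After quantile normalization the 95% intervals of the differences were -0.028 to 0.45 for HDAC5, -0.30 to 0.032 for HDAC9 and -0.15 to 0.19 for HDAC11, so differences of the size given by either bound could not be told from none.

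**Figure D2:**
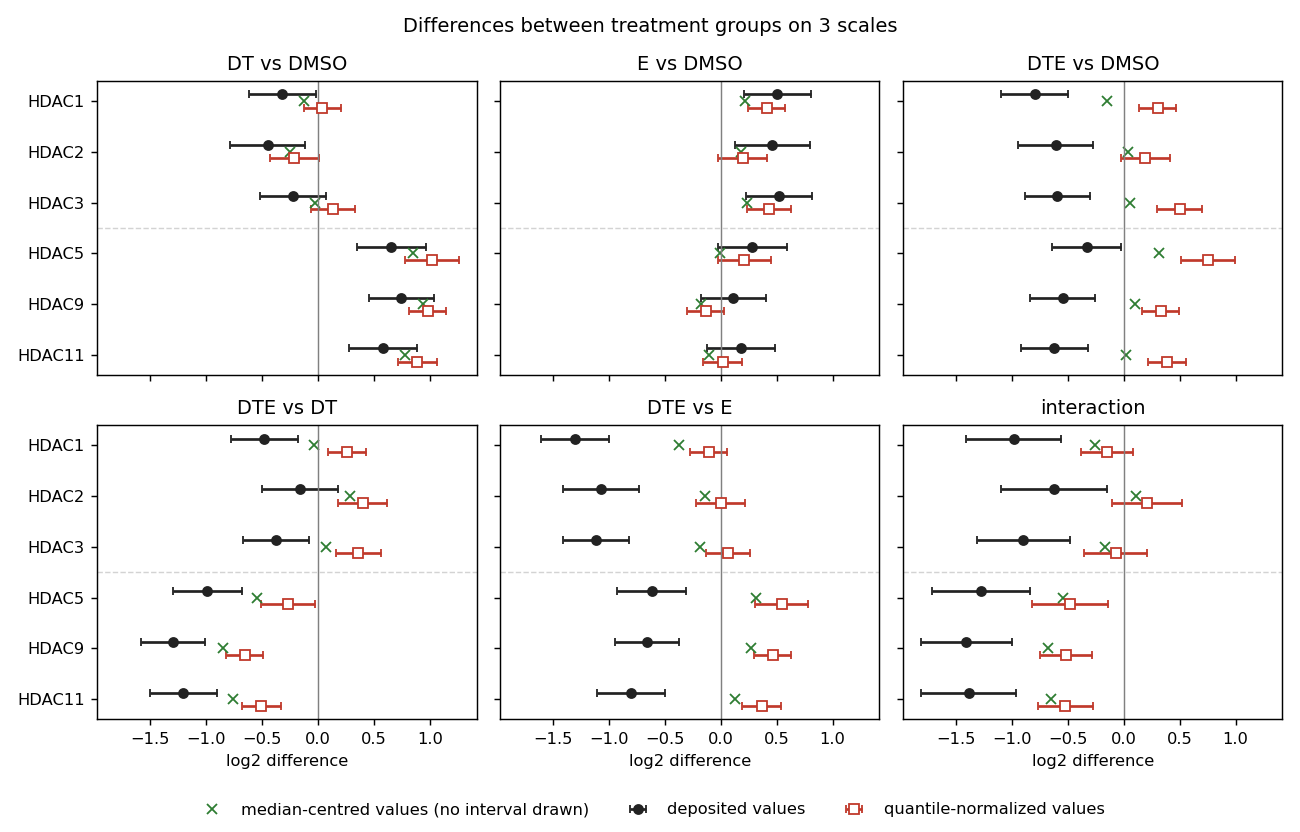
Log2 difference (horizontal axis) of the 6 genes (vertical axis) in 5 comparisons and the interaction; filled circles are deposited values and open squares quantile-normalized values, both with 95% intervals, and crosses are median-centred values. In DT against DMSO the lower 3 genes lie above 0 on every scale. In DTE against DMSO the deposited values lie below 0 and the quantile-normalized values above it for all 6 genes.

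With entinostat on top of dabrafenib and trametinib, the genes high in DT were lower. They were chosen with their DT values known and the same DT arrays enter here, so genes picked as high in DT lean toward a fall. HDAC9 and HDAC11 fell in DTE cells against DT on the deposited scale, after quantile normalization and after median centring. HDAC5 fell on the deposited and centred scales. On the deposited scale 0 of 6 genes were called higher and 5 lower, against 4.09% and 54.0% of all named genes. After quantile normalization 3 of 6 were called higher, which were HDAC1, HDAC2 and HDAC3, and 2 lower, against 16.4% and 17.9%. After median centring 1 was called higher and 3 lower, against 24.1% and 25.6%.

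HDAC9 had intensities of 37.0, 36.6 and 39.5 in DTE and 98.3, 81.4 and 98.0 in DT, a log2 difference of -1.29 ± 0.14 (SE, adjusted p = 1.3e-07). HDAC9 also fell after quantile normalization, where the arrays held 63.4, 56.7 and 60.1 in DTE and 96.1, 90.2 and 96.4 in DT (-0.65 ± 0.076, adjusted p = 2.3e-05). The groups did not overlap on either scale. HDAC11 had 50.5, 48.4 and 59.1 in DTE and 124, 113 and 125 in DT, with -1.20 ± 0.15 (SE, adjusted p = 5.5e-07) and, after quantile normalization, -0.50 ± 0.08 (adjusted p = 3.0e-04). HDAC5 had 157, 144 and 171 in DTE and 327, 277 and 331 in DT, with -0.99 ± 0.15 (SE, adjusted p = 8.2e-06). After quantile normalization HDAC5 missed the threshold (-0.27 ± 0.11, adjusted p = 0.081), with a 95% interval of -0.51 to -0.028 before adjustment.

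HDAC1, HDAC2 and HDAC3 in the same comparison changed sign with the scale. HDAC1 had 84.5, 81.4 and 96.1 in DTE and 129, 110.0 and 126 in DT, which gave -0.48 ± 0.15 on the deposited scale (adjusted p = 0.0074) and 0.26 ± 0.077 after quantile normalization (adjusted p = 0.018). HDAC3 had 96.0, 105 and 117 in DTE and 160.4, 121 and 133 in DT, which gave -0.37 ± 0.14 (adjusted p = 0.028) and 0.36 ± 0.092 (adjusted p = 0.0078). The quantile-normalized call of HDAC1 was lost without the first or the third DTE array (adjusted p = 0.068 and 0.059). The deposited call of HDAC3 was lost without the first DT array (adjusted p = 0.18) or the first or second DTE array (0.13 and 0.067). HDAC2 had 26.3, 33.6 and 35.9 in DTE and 37.8, 32.5 and 35.8 in DT, and these arrays overlapped. Its difference was -0.16 ± 0.16 (adjusted p = 0.42) on the deposited scale, with a range of -0.25 to -0.025 when 1 array was left out, and 0.40 ± 0.10 (adjusted p = 0.0072) after quantile normalization. Every DTE array was below every DT array for 5 of the 6 genes on the deposited scale, a state found for 59.9% of all named genes.

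Set against the vehicle, the combination has no direction for these genes that holds across scales. On the deposited scale 0 of 6 were called higher and 5 lower in DTE against DMSO, against 4.26% and 60.8% of all named genes, with HDAC5 the exception (-0.33 ± 0.15, adjusted p = 0.055). After quantile normalization 5 of 6 were called higher and 0 lower, against 20.5% and 22.4%, with HDAC2 the exception (0.19 ± 0.10, adjusted p = 0.15). After median centring HDAC5 alone was called, as higher (0.31, adjusted p = 0.028), against 37.8% of genes called higher and 31.7% lower. For all 6 genes every DTE array was below every DMSO array on the deposited scale, where this held for 63.6% of all named genes. The deposited differences were -0.79 for HDAC1, -0.61 for HDAC2, -0.59 for HDAC3, -0.55 for HDAC9 and -0.62 for HDAC11, beside an all-gene median of -0.54. HDAC5 had the highest quantile-normalized difference of the 6, at 0.76 ± 0.11 (adjusted p = 9.9e-05), from 281, 236 and 266 in DTE and 136, 162 and 166 in DMSO.

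The remaining comparison, DTE against E, asks what dabrafenib and trametinib changed in cells that also had entinostat. All 6 genes fell on the deposited scale, by 1.30 for HDAC1, 1.07 for HDAC2, 1.11 for HDAC3, 0.61 for HDAC5, 0.66 for HDAC9 and 0.80 for HDAC11. The share of all named genes called lower was 78.5%, and 0.247% were called higher. All 6 genes had every DTE array below every E array, as had 79.0% of named genes. After quantile normalization HDAC5, HDAC9 and HDAC11 rose: HDAC5 by 0.54 ± 0.11 (adjusted p = 0.0037), HDAC9 by 0.46 ± 0.076 (adjusted p = 8.3e-04) and HDAC11 by 0.37 ± 0.08 (adjusted p = 0.0056). This made 3 of 6 called higher and 0 lower, against 10.1% and 9.99% of all genes. HDAC1, HDAC2 and HDAC3 then had differences of -0.11 ± 0.077, -0.0012 ± 0.10 and 0.066 ± 0.092, none of them called. After median centring 2 of 6 were called higher, HDAC5 and HDAC9, and HDAC1 was called lower, against 36.2% and 19.3% of all genes.

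**Figure D3:**
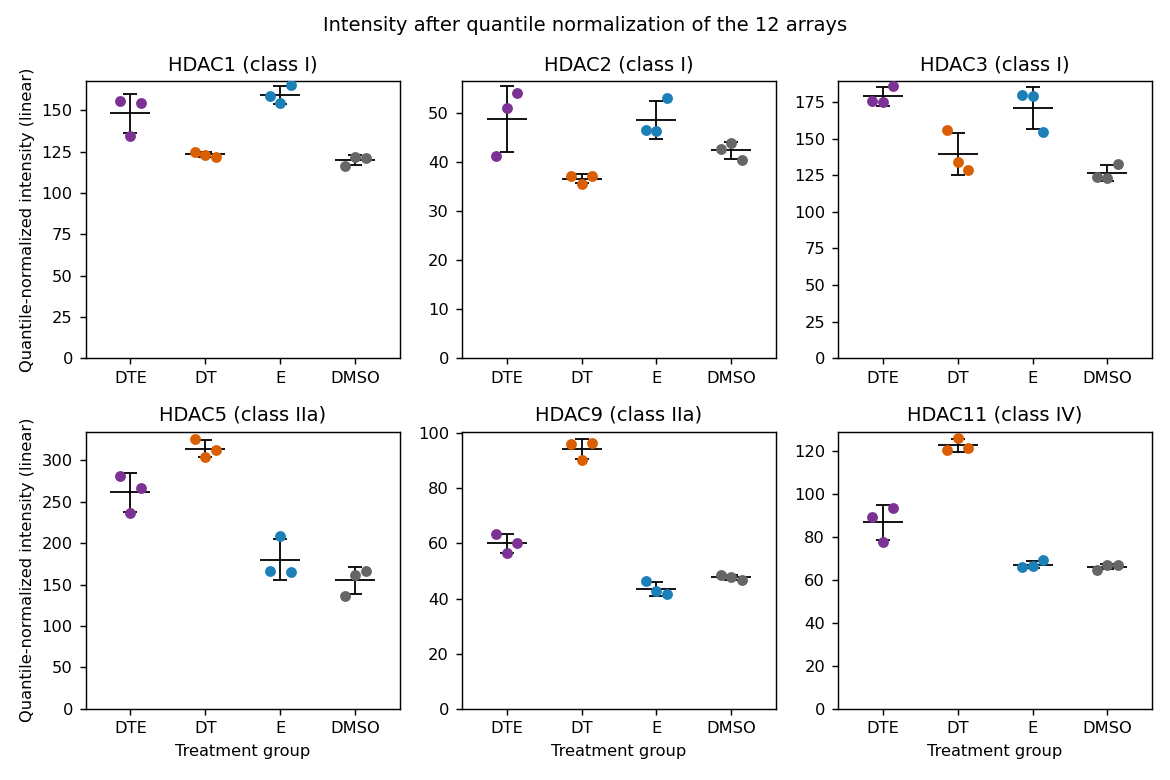
Intensity after quantile normalization (vertical axis, linear) of the 6 genes on each array by treatment group (horizontal axis); points are arrays and bars the mean with SD (n = 3). HDAC9 averages 60.0 ± 3.36 in DTE, 94.2 ± 3.49 in DT, 43.5 ± 2.52 in E and 47.7 ± 1.00 in DMSO.

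The order of the groups on the quantile-normalized scale was not the same for the 6 genes, and no test was made of the order itself. HDAC9 averaged 60.0 ± 3.36 in DTE, 94.2 ± 3.49 in DT, 43.5 ± 2.52 in E and 47.7 ± 1.00 in DMSO (SD, n = 3 each), so that DT was highest, DTE next, and E and DMSO differed by less than the test could call. HDAC11 also had DT highest and DTE next, with 86.9 ± 8.26 in DTE, 123 ± 2.94 in DT, 67.2 ± 1.71 in E and 66.2 ± 1.28 in DMSO. HDAC5 averaged 261 ± 23.1 in DTE, 314 ± 10.4 in DT, 179.9 ± 24.8 in E and 155 ± 16.3 in DMSO, and its neighbours DT and DTE, and E and DMSO, were not called different. For HDAC1 the order put 159 ± 5.52 in E and 148 ± 11.7 in DTE, not called different, above 123 ± 1.44 in DT and 119.8 ± 2.90 in DMSO, also not called different. HDAC3 likewise had 179 ± 6.33 in DTE and 171 ± 14.2 in E above 139 ± 14.5 in DT and 127 ± 5.26 in DMSO. HDAC2 spanned 48.9 ± 6.76 in DTE, 36.7 ± 0.953 in DT, 48.7 ± 3.81 in E and 42.4 ± 1.74 in DMSO, where DTE was called higher than DT and neither differed from DMSO by a call.

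The interaction asks whether entinostat acted differently in cells that also had dabrafenib and trametinib, as DTE minus DT less E minus DMSO. HDAC9 and HDAC11 had a negative interaction on every scale used. HDAC9 gave -1.40 ± 0.20 (SE, adjusted p = 2.6e-05) on the deposited scale, -0.52 ± 0.11 (adjusted p = 0.017) after quantile normalization and -0.67 (adjusted p = 0.0061) after centring. HDAC11 gave -1.38 ± 0.21 (adjusted p = 4.3e-05), -0.52 ± 0.11 (adjusted p = 0.021) and -0.65 (adjusted p = 0.0065). The quantile-normalized call of HDAC11 was lost without the first DMSO array, the second DT array or the third E array (adjusted p of up to 0.054). HDAC5 gave -1.27 ± 0.21 (adjusted p = 1.2e-04), -0.48 ± 0.16 (adjusted p = 0.11) and -0.54 (adjusted p = 0.038), so its call did not hold after quantile normalization.

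On the deposited scale 0 of 6 genes had a positive interaction call and all 6 a negative one, against 0.206% and 62.5% of all named genes. After quantile normalization the counts were 0 and 2, against 2.08% and 2.12%, and after centring 0 and 3, against 12.8% and 4.58%. The class I interactions on the deposited scale were -0.98 for HDAC1, -0.62 for HDAC2 and -0.89 for HDAC3, beside an all-gene median of -0.63. HDAC1 and HDAC3 lay below that median, at the 14.3 and 21.5 percentiles of all genes, and HDAC2 was at the 50.7 percentile. The call of HDAC2 was lost without the third DMSO, the first DT, the first DTE or the third E array (adjusted p of 0.056 to 0.085). After quantile normalization the 3 class I interactions were -0.15 ± 0.11, 0.21 ± 0.14 and -0.071 ± 0.13, with no call.

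In a ratio of genes on the same array, a constant factor of brightness cancels, though quantile normalization can still change it. The mean log2 intensity of HDAC5, HDAC9 and HDAC11 minus that of HDAC1, HDAC2 and HDAC3 was taken on each array from the deposited values and set to 0 at the DMSO mean. It was 0.29, 0.077 and 0.13 in DTE, 0.92, 0.99 and 1.06 in DT, -0.33, -0.22 and -0.36 in E and -0.04, 0.0076 and 0.033 in DMSO. The groups did not overlap: DT was highest, then DTE, then DMSO, and E was lowest. Over the 9 deposited ratios of HDAC5, HDAC9 or HDAC11 to HDAC1, HDAC2 or HDAC3, all 9 were higher in DT than in DMSO, by 0.80 to 1.19 on the log2 scale. All 9 were lower in E than in DMSO, with log2 differences of -0.41 to -0.18, and all 9 were lower in DTE than in DT, with -1.13 to -0.51. Against E, all 9 were higher in DTE, by 0.27 to 0.69, while against DMSO 7 were higher in DTE and 2 lower, from -0.03 to 0.46. After quantile normalization all 9 were again higher in DT than in DMSO (0.75 to 1.23), lower in DTE than in DT (-1.05 to -0.53) and higher in DTE than in E (0.30 to 0.65). In E against DMSO 8 were then lower and 1, HDAC5 to HDAC2, was higher (-0.57 to 0.017), and in DTE against DMSO 7 were higher and 2 lower (-0.17 to 0.56). The 9 ratios share 6 genes and the DMSO arrays, so they are not independent and no test was made of them. They show unequal change of these 6 genes and not which of them changed, and say nothing of the other genes of each class.

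**Figure D4:**
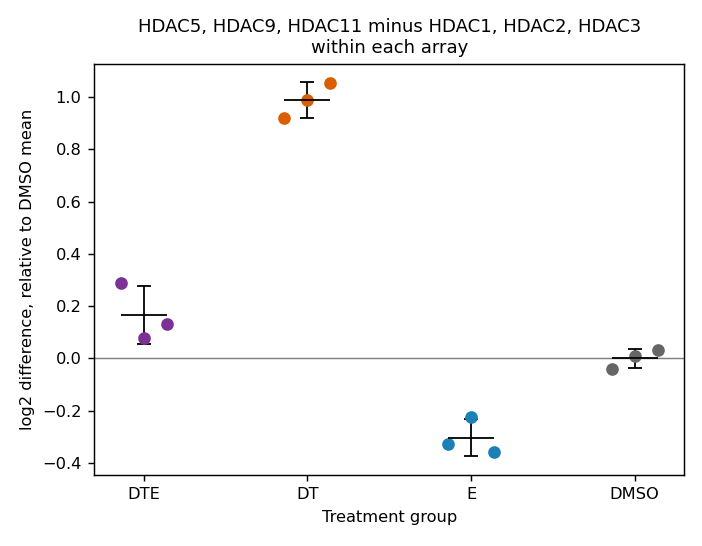
Difference of the mean log2 intensity of HDAC5, HDAC9 and HDAC11 from that of HDAC1, HDAC2 and HDAC3 on the same array (vertical axis, relative to the DMSO mean) by treatment group (horizontal axis); points are arrays, bars the mean with SD (n = 3). DT averages 0.99, DTE 0.17 and E -0.30, and no groups overlap.

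The other zinc-dependent deacetylases did not follow the classes as blocks. HDAC6, the cytoplasmic class IIb tubulin deacetylase, rose in DT against DMSO by 0.38 ± 0.14 on the deposited log2 scale (SE, adjusted p = 0.047) and by 0.64 ± 0.07 after quantile normalization (adjusted p = 1.4e-05). HDAC4, of class IIa like HDAC5 and HDAC9, had -0.44 ± 0.17 (adjusted p = 0.055) and -0.13 ± 0.093 after quantile normalization (adjusted p = 0.34). HDAC7, also of class IIa, had 0.12 ± 0.15 (adjusted p = 0.65) and rose after quantile normalization (0.39 ± 0.10, adjusted p = 0.011). HDAC8, of class I, likewise rose in DT after quantile normalization (0.39 ± 0.091, adjusted p = 0.0058), against 0.027 ± 0.15 as deposited. HDAC10, of class IIb, was not called in DT on either scale (-0.30 ± 0.17 and -0.096 ± 0.15). In E against DMSO, HDAC7 (-0.52 ± 0.10, adjusted p = 0.0018) and HDAC10 (-0.48 ± 0.15, adjusted p = 0.027) fell after quantile normalization, and HDAC6 rose as deposited (0.38 ± 0.14, adjusted p = 0.045). HDAC8 was not called in E as deposited (0.21 ± 0.15, adjusted p = 0.31), after quantile normalization (0.14 ± 0.091, adjusted p = 0.28) or after centring (-0.071, adjusted p = 0.59). In DTE against E after quantile normalization, HDAC4 fell (-0.32 ± 0.093, adjusted p = 0.026) and HDAC6 rose (0.37 ± 0.07, adjusted p = 0.0023), while HDAC7 (0.26 ± 0.10), HDAC8 (0.12 ± 0.091) and HDAC10 (0.044 ± 0.15) were not called. HDAC8 averaged 179 ± 19.8 in DTE, 194 ± 10.8 in DT, 164 ± 6.05 in E and 149 ± 8.30 in DMSO on that scale, the order of means that HDAC5 had. Over all 11 genes, 4 were called higher and 1 lower in DT as deposited (4.72% and 23.1% of all genes), and 6 and 0 after quantile normalization (15.1% and 14.6%). In E the counts were 4 and 0 as deposited (20.8% and 4.81% of all genes) and 2 and 2 after quantile normalization (15.1% and 16.3%). In DTE against DT they were 0 and 10 as deposited (4.09% and 54.0%) and 3 and 3 after quantile normalization (16.4% and 17.9%). In the interaction they were 0 and 10 as deposited (0.206% and 62.5%), with -1.17 for HDAC6 and -1.08 for HDAC8, and 0 and 2 after quantile normalization (2.08% and 2.12%).

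Known readouts of the drugs were as follows. SPRY4, an inhibitor induced by ERK signalling, had 58.1, 45.6 and 61.1 in DT and 976, 982 and 754 in DMSO, and fell with a log2 difference of -4.04 ± 0.17 (SE, adjusted p = 3.7e-14). All 12 measured genes of the ERK output list of 15 fell in DT as deposited, and 11 did after quantile normalization, beside 23.1% and 14.6% of all genes called lower. CLU, which encodes the chaperone clusterin and is known to rise with deacetylase inhibitors, had 66.0, 54.9 and 53.6 in E and 15.6, 20.1 and 16.1 in DMSO, a log2 difference of 1.75 ± 0.14 (SE, adjusted p = 2.0e-09). All 5 measured genes of the list of 8 known to rise with class I inhibitors were called higher in E on both scales, beside 20.8% of all genes as deposited and 15.1% after quantile normalization.

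The complexes that hold class I enzymes were counted gene by gene. In DT against DMSO, 0 of 9 measured SIN3 genes were called higher and 3 lower as deposited, 0 and 5 of 10 NuRD genes, 1 and 1 of 6 CoREST genes, 0 and 0 of 2 MiDAC genes, and 0 and 1 of 3 NCOR and SMRT genes, beside 4.72% and 23.1% of all genes. After quantile normalization these counts were 2 and 2, 1 and 4, 3 and 1, 0 and 0, and 0 and 0, beside 15.1% and 14.6% of all genes. In E against DMSO the deposited counts were 0 and 0 for SIN3, 1 and 2 for NuRD, 2 and 0 for CoREST, 1 and 0 for MiDAC and 1 and 0 for NCOR and SMRT, beside 20.8% and 4.81% of all genes. After quantile normalization the E counts were 0 and 2, 1 and 5, 2 and 1, 1 and 1, and 0 and 0, beside 15.1% and 16.3% of all genes. The medians in DT ranged over these lists from -0.39 for NuRD to -0.02 for CoREST, beside -0.12 over all genes.

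Of the class IIa partners, which comprise MEF2 factors, 14-3-3 proteins, the kinases that phosphorylate class IIa enzymes and ankyrin-repeat proteins, 12 of 20 were measured. In DT against DMSO 1 was called higher and 3 lower as deposited (4.72% and 23.1% of all genes), and 4 and 2 after quantile normalization (15.1% and 14.6%). In E against DMSO the counts were 4 and 1 as deposited (20.8% and 4.81% of all genes), and 3 and 1 after quantile normalization (15.1% and 16.3%). The 1 gene called higher in DT as deposited was MEF2C, a transcription factor that class IIa enzymes bind and repress. The other measured MEF2 factors, MEF2A and MEF2D, did not rise on that scale. Their mean deposited intensities were 124 and 322 in DT and 129 and 349 in DMSO, on a scale where the all-gene median log2 difference was -0.12. Their differences after quantile normalization are not given here, so MEF2C is not set apart from them on that scale. CAMK4, a kinase that phosphorylates class IIa enzymes, fell in DT, with log2 differences of -1.07 ± 0.14 as deposited (SE, adjusted p = 3.9e-06) and -0.86 ± 0.11 after quantile normalization (adjusted p = 4.2e-05). SIK2, another such kinase, fell as deposited (-0.56 ± 0.13, adjusted p = 0.0025), and its difference was -0.21 after quantile normalization (adjusted p = 0.062).

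MEF2C had the same order of groups as HDAC9 in part. Its deposited intensities were 64.3, 65.7 and 70.2 in DTE, 232, 246 and 271 in DT, 80.8, 89.6 and 93.2 in E and 127, 123 and 103 in DMSO, and no groups overlapped. MEF2C rose in DT against DMSO by 1.09 ± 0.13 (SE, adjusted p = 1.1e-06) and by 1.40 ± 0.085 after quantile normalization (adjusted p = 8.4e-08). It fell in DTE against DT, with differences of -1.90 ± 0.13 as deposited and -1.16 ± 0.085 after quantile normalization (adjusted p = 3.0e-10 and 3.8e-07). Its interaction was -1.48 ± 0.19 and, after quantile normalization, -0.61 ± 0.12 (adjusted p = 1.0e-05 and 0.012). MEF2C also fell in E against DMSO on both scales, with differences of -0.42 ± 0.13 and -0.55 ± 0.085 (adjusted p = 0.023 and 2.7e-04). The difference between the genes' changes was not tested.

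**Figure D5:**
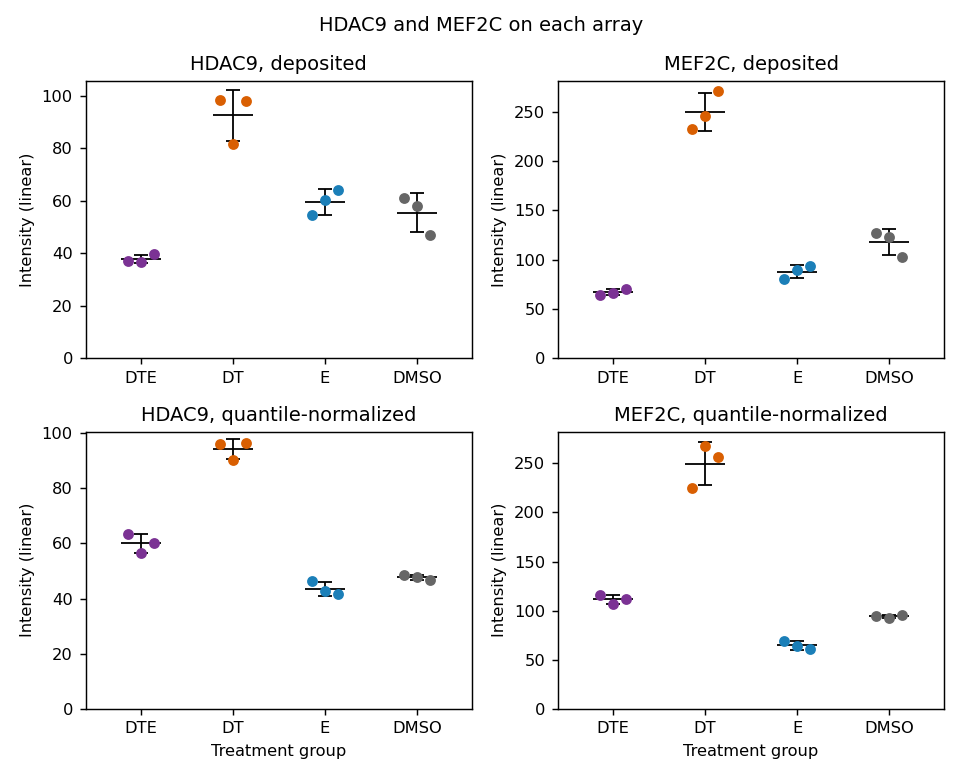
Intensity (vertical axis, linear) of HDAC9 and MEF2C on each array by treatment group (horizontal axis), as deposited in the upper row and quantile-normalized in the lower row; points are arrays and bars the mean with SD (n = 3). Both genes are highest in DT on both scales.

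The genes whose quantile-normalized values over the 12 arrays were most like each member were as follows, as Pearson's r. The arrays share 4 treatments, and r includes the differences between them. For HDAC9 they were CUBN (0.995), TLR1 (0.993) and HPS5 (0.989), and for HDAC11 UBE2H (0.984), PLXNB1 (0.983) and ARHGEF6 (0.981). For HDAC5 they were TSPAN17 (0.972), CSMD3 (0.970) and PLPP1 (0.966). Among class I, HDAC3 was nearest to SGSM1 (0.981), PGM2L1 (0.955) and NECTIN3 (0.952), HDAC1 to VWDE (0.963), CSF1R (0.953) and YBX2 (0.953), and HDAC2 to PGBD1 (0.937), BIN3-IT1 (0.937) and CCDC47 (0.925). Between members r was 0.973 for HDAC9 and HDAC11, 0.917 for HDAC5 and HDAC11, 0.867 for HDAC5 and HDAC9, and 0.827 for HDAC1 and HDAC3. On the deposited scale it was 0.9727 for HDAC1 and HDAC3 and 0.9711 for HDAC9 and HDAC11. With group means removed from the quantile-normalized values, r was 0.19 for HDAC9 and HDAC11, and highest, at 0.90, for HDAC1 and HDAC11. For the nearest genes named above, r on the deposited scale was 0.38 to 0.56 for those of HDAC1. It was 0.56 and 0.51 for SGSM1 and PGM2L1 with HDAC3, and 0.63 to 0.98 for the others. With group means removed, r for the nearest genes was 0.26 to 0.92. RefSeq lists the pseudogenes HDAC1P1 and HDAC1P2 and the antisense genes HDAC2-AS2, HDAC9-AS1 and HDAC11-AS1, and binding of their RNA to the members' probes was not tested.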

How the data were processed

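Expression was measured with 12 Affymetrix arrays of SK-MEL-2 RNA, 3 in each treatment group. The submitters' processing notes name RMA and Transcriptome Analysis Console, with no version given. The values the authors deposited are intensities on a linear scale (2.345 to 8595), with 1 value for a probe set and array. The design had assumed log2 values, so log2 was taken with no pseudocount. Of 29398 probe sets, 14750 (50.2%) were named for 1 gene in the platform annotation and 14648 were not, which left 14582 genes. For 156 genes with several probe sets, none of them among the 6, the brightest on average was used. Arrays give no read depth, so their number limits the precision.

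The limma package (version 3.58.1, R 4.3.3) fitted 1 mean per group over all 12 arrays and all genes. P-values were adjusted by Benjamini-Hochberg over all genes in each comparison, and an adjusted p under 0.05 was a call. The fit was tested on simulated data. Alternatives were quantile normalization, centring of each array, a filter on dim genes, a pseudocount of 16, fits of the compared groups only, eBayes with trend and robust, the replicate number as a block, and each array left out. The block and the arrays left out were repeated on quantile-normalized values after seeing the data. The dim level, the 95th percentile among the dimmest 25% of genes on an array, and the promoter motifs were also set after seeing them.

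Named were the 6 members, the other zinc-dependent deacetylases, up to 4 genes per list with the smallest adjusted p, and the 3 genes most like each member. SPRY4, CLU, MEF2C, CAMK4, SIK1 and SIK2 are such list genes. The members and lists were chosen with earlier results of these data known. Within groups, arrays correlated at r = 0.991 to 0.994. Samples with the same replicate number did not deviate together, so the numbers were not used as pairs.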

Additional observations from a re-analysis of the deposited data

Results flagged for a closer look

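On the deposited scale, limma's test called the interaction negative for each of the 6 genes. The interaction (DTE minus DT, less E minus DMSO, log2) was -0.98 for HDAC1 (adjusted p = 6.4e-04), -0.62 for HDAC2 (adjusted p = 0.024) and -0.89 for HDAC3 (adjusted p = 0.0011). It was -1.27 for HDAC5 (adjusted p = 1.2e-04), -1.40 for HDAC9 (adjusted p = 2.6e-05) and -1.38 for HDAC11 (adjusted p = 4.3e-05). The median over all genes was -0.63 and 62.5% of genes were called negative. After quantile normalization the values were -0.52 for HDAC9 (adjusted p = 0.017) and -0.52 for HDAC11 (adjusted p = 0.021), and the other 4 genes were not called. HDAC2 turned positive, with 0.21 after quantile normalization and 0.11 after median centring. After centring only HDAC5, HDAC9 and HDAC11 were called, all as negative.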

How the results depend on the processing

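The calls of HDAC5, HDAC9 and HDAC11 as higher in DT than DMSO, and of HDAC9 and HDAC11 as lower in DTE than DT and negative in the interaction, held under every alternative applied to the deposited values. All of these calls use the DT arrays from which the genes were known to be high. The scale between arrays changed most other results, and the cause of the difference between scales was not tested. Under quantile normalization, all genes called came to 6261 (DTE against DMSO), 4993 (DTE against DT), 2923 (DTE against E) and 612 (interaction), against 9490, 8466, 11489 and 9147 as deposited. Members called then numbered 3 (DTE against E) and 2 (interaction), in place of 6 and 6. Under median centring they numbered 0 (E against DMSO), 1 (DTE against DMSO), 3 (DTE against E) and 3 (interaction), and 2540 genes were called in the interaction.

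Signs turned under quantile normalization to 0.042 (HDAC1) and 0.14 (HDAC3) in DT against DMSO, and to -0.13 (HDAC9) in E against DMSO. In DTE against DMSO they turned to 0.30, 0.19, 0.50, 0.76, 0.33 and 0.39 (HDAC1, HDAC2, HDAC3, HDAC5, HDAC9 and HDAC11). In DTE against DT they turned to 0.26, 0.40 and 0.36 (HDAC1, HDAC2 and HDAC3). In DTE against E they turned to 0.066, 0.54, 0.46 and 0.37 (HDAC3, HDAC5, HDAC9 and HDAC11), and in the interaction to 0.21 (HDAC2). Under median centring signs turned to -0.0025, -0.17 and -0.10 (HDAC5, HDAC9 and HDAC11) in E against DMSO. In DTE against DMSO they turned to 0.036, 0.053, 0.31, 0.098 and 0.025 (HDAC2, HDAC3, HDAC5, HDAC9 and HDAC11), in DTE against DT to 0.29 and 0.073 (HDAC2 and HDAC3), in DTE against E to 0.31, 0.27 and 0.13 (HDAC5, HDAC9 and HDAC11), and in the interaction to 0.11 (HDAC2).

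With 1 array left out, the members called in E against DMSO ranged from 1 to 4, with 1 without the third DMSO array or the third E array. HDAC9 in E against DMSO ranged from -0.0019 to 0.19. On quantile-normalized values the ranges that crossed 0 were -0.14 to 0.012 (HDAC3, interaction), -0.00094 to 0.033 (HDAC11, E against DMSO), and -0.082 to 0.12 and -0.0053 to 0.10 (HDAC2 and HDAC3, DTE against E). HDAC5 was called lower in DTE than DMSO with the dim filter, with trend and robust, in the fit of those groups alone, and without the third DMSO, the third DTE or the first E array (adjusted p of 0.031 to 0.047). Other calls gained with 1 array left out were HDAC1 in DT without the third DMSO array (0.041), HDAC5 in E without the first E array (0.031), and, quantile-normalized, HDAC2 in DTE against DMSO without the first DTE array (0.015).

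The replicate numbers did not pair the arrays: 2 of 18 same-numbered pairs correlated above 0.1 (-0.22 to 0.13), and 15 of 36 were best correlated with their own number. With the replicate number as a block, 3749, 3387, 9283, 8197, 11393 and 8738 genes were called in DT against DMSO, E against DMSO, DTE against DMSO, DTE against DT, DTE against E and the interaction, against 4056, 3734, 9490, 8466, 11489 and 9147 without it. HDAC2 lost its calls in DT and in E under the block (adjusted p = 0.057 and 0.053). The interaction needs all 4 groups, so it has no fit of fewer groups, and averaging probe sets gave no value because each member has 1. Signal over background limits HDAC2 most, at 26.3 on its dimmest array, beside dim levels of 10.3 to 15.3 over the 12 arrays.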

Other observations

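Among histone acetyltransferases, the enzymes that add the groups deacetylases remove, 10 of 12 were measured. In E against DMSO, 1 was called higher and 5 lower as deposited, beside 20.8% and 4.81% of all genes, and 1 and 8 after quantile normalization, beside 15.1% and 16.3%. KAT2B, which encodes the acetyltransferase PCAF, had intensities of 448, 478 and 478 in DTE, 1571, 1461 and 1716 in DT, 435, 554 and 656 in E and 1170.1, 1192 and 945 in DMSO and fell in E against DMSO with a log2 difference of -1.02 ± 0.15 (SE, adjusted p = 1.5e-05). KAT2B rose in DT against DMSO on both scales (0.53 ± 0.15 as deposited, adjusted p = 0.01, and 0.82 ± 0.081 after quantile normalization, adjusted p = 5.9e-06). It fell in DTE against DT on both (-1.76 and -1.07). Its interaction was -0.74 as deposited (adjusted p = 0.0059) and 0.087 after quantile normalization (adjusted p = 0.77).

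Of the 7 sirtuins, deacetylases that use NAD in place of zinc and are not targets of entinostat, 1 was called higher and 1 lower in DT against DMSO as deposited (4.72% and 23.1% of all genes), and 3 and 1 after quantile normalization (15.1% and 14.6%). In E against DMSO the counts were 1 and 0 on both scales, beside 20.8% and 4.81% of all genes as deposited and 15.1% and 16.3% after quantile normalization.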
